A study of Drosophila melanogaster with 46 samples.

Results

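The genes described here encode the structural proteins of the insect cuticle, and they were taken as the genes whose symbol begins with Cpr and a digit, Lcp, Ccp84A, Edg, Twdl, Pcp or Acp65A. This gave 125 of the 17490 genes in the expression table: 70 Cpr, 26 Twdl, 17 Lcp, 7 Ccp84A, 3 Edg, 1 Pcp and 1 Acp65A gene. Expression was measured by RNA-seq in the central nervous system (CNS) of Drosophila melanogaster larvae of the third instar, in 4 Tet CD and 4 wild-type (wt) samples, each from 30 brains. Tet CD is the catalytic dead allele of Tet, the fly TET enzyme that oxidises methylated bases, in which a double point mutation (HrD to YrA) changes the iron binding motif. The strain list of the study gives it as a knock-in that also carries GFP, the wt strain is w1118, and the mutation, the tag and the strain background cannot be told apart in this comparison. The study asked which roles of TET in the larval CNS need its catalytic activity and which do not. Values are RPKM, read counts divided by exon length and library depth.

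The cuticle is the outer coat of the insect, built of chitin fibres and proteins that epidermal cells secrete anew at each molt, and it also lines the trachea, the air tubes that run into every organ including the brain. Most Cpr, Lcp, Ccp84A, Edg, Pcp and Acp65A proteins carry the Rebers-Riddiford domain, which binds chitin, whereas Tweedle (Twdl) proteins form a separate family named for a mutant with a short, stout body. Many of these genes are switched on by the steroid hormone ecdysone and its target transcription factors for a short time before each cuticle is laid down, with separate genes for larval, pupal and adult cuticle.

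Of the 125 genes, 19 were at 0 in all 8 libraries (15.2%, against 14.3% of all genes in the table) and 106 had at least 1 read. Only 39 were detected in every library, and 50 had no more than 3 reads in any library. The RPKM values could be turned back into whole reads, which gave 17900000 to 19300000 reads per Tet CD library and 17500000 to 32600000 reads per wt library. In all, 9104 reads in Tet CD and 12027 reads in wt fell on the 125 genes. A mean of 0.5 RPKM over the 8 libraries, the limit for the test across genes, was reached by 24 of them. A mean of 1 RPKM was reached by 15 and of 5 RPKM by only 5, where the median gene tested had 16.3 RPKM. A count of 0 in 1 library allows up to 3 reads and covers counting error only.

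Within families, Cpr had 11 of 70 genes at 0 and 13 tested. These 11 were Cpr23B, Cpr30F, Cpr47Ed, Cpr49Aa, Cpr49Ab, Cpr49Ag, Cpr57A, Cpr65Ax1, Cpr65Ax2, Cpr67Fb and Cpr76Bb. Lcp, named for larval cuticle, had Lcp65Aa and the pseudogene Lcp65APsi at 0 and 5 of 17 tested. Twdl had TwdlP, TwdlB, TwdlK, TwdlJ and TwdlR at 0 and 2 of 26 tested. None of the 7 Ccp84A genes (2 tested), the 3 Edg genes (1 tested) or Pcp (tested) was at 0 throughout, and the adult cuticle gene Acp65Aa was at 0 in every library. The number of genes at 0 in a library was 46 to 53 in Tet CD and 44 to 51 in wt.

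**Figure D1:**
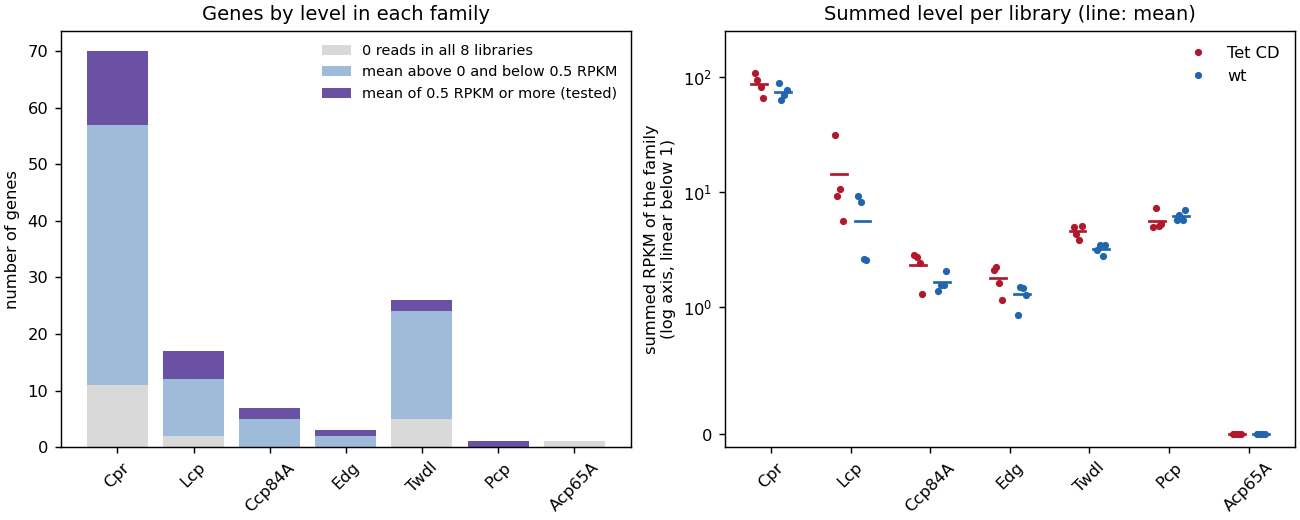
Left, number of genes in each cuticle protein family (vertical axis) that had 0 reads in all 8 libraries, a mean under 0.5 RPKM, or a mean of 0.5 RPKM or more. Right, summed RPKM of each family in each library (log axis, linear below 1; 4 Tet CD points in red left of 4 wt points in blue, line at the mean); the Lcp point far above the others is Tet CD replicate 1 at 31.4 RPKM.

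The promoters of these genes had a feature that the names did not use. TATAAA, the core of the TATA box at which many strongly switched genes start transcription, was searched on both strands from 45 to 16 bases before the start in RefSeq promoters of assembly Release 6 plus ISO1 MT (dm6). It was found in 76 of the 122 cuticle protein genes with a promoter sequence (62.3%), against 10.1% of 13647 promoters of the table's genes. By family the motif was in 40 of 70 Cpr, 15 of 25 Twdl, 11 of 15 Lcp, 5 of 7 Ccp84A and 3 of 3 Edg promoters, and in those of Pcp and Acp65Aa. By level, 13 of 18 genes at 0, 45 of 80 genes under 0.5 RPKM and 18 of 24 tested genes had it. A match is a description of the letters and does not show a working TATA box.

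The 60 bases before the start of 6 genes whose values are given further on are shown, with TATAAA in capitals: Cpr67Fa2 (chr3L:10891654-10891713 on the plus strand) and Cpr65Ea (chr3L:7086609-7086668 on the minus strand), which were read in 1 genotype only; Edg84A (chr3R:6684385-6684444 on the plus strand), a pupal cuticle gene; TwdlX (chrX:16731031-16731090 on the plus strand); Cpr12A (chrX:13543583-13543642 on the plus strand), where the motif lies at the far edge of the window; and Pcp (chr2L:7021622-7021681 on the plus strand).
Cpr67Fa2: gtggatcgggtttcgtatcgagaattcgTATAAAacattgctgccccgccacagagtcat
Cpr65Ea: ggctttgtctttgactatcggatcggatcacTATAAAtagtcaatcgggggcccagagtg
Edg84A: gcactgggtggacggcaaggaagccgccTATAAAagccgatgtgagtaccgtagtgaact
TwdlX: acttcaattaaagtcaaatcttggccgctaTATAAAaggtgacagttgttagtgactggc
Cpr12A: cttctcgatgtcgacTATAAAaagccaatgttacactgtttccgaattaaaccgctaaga
Pcp: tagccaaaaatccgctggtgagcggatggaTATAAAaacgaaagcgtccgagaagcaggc

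Among the 24 genes tested, 19 had a positive and 5 a negative log2 fold change of Tet CD over wt, with a median of 0.45, against -0.0061 over the 9357 genes tested, of which 48.6% were positive. Of the 24, 5 (Cpr66D, Lcp65Ad, TwdlE, Lcp2 and Cpr67B) reached a mean of 0.5 RPKM in Tet CD and not in wt, so they could pass the filter only by being higher in Tet CD, and 0 did so in wt only; the other 19 had 14 positive and 5 negative values. With no filter, all 106 genes with reads had 67 positive and 39 negative values and a median of 0.06, against -0.0062 over all 14994 genes with reads. With the filter, limma called 1 of the 24 higher in Tet CD (fold change above 1.2 with adjusted p below 0.01). Over all tested genes, 1.16% were called higher. Limma called 0 of the 24 lower, where 1.35% of all genes were called lower. At an unadjusted p below 0.05, 7 of the 24 were higher and 1 was lower, where 14.4% and 13.9% of all genes were. The 7 include Cpr66D and Lcp65Ad, which reached the filter through Tet CD only. The counts and the median over the 24 are therefore a description of these genes and not of the whole group. Fold changes on the log2(RPKM + 0.5) scale understate the change of low genes. In bulk tissue, fewer cells of a type and less RNA per cell cannot be told apart. The limma p-values set the difference between genotypes against the spread within each genotype. The design text of the series calls the 8 samples biological replicates.

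Cpr51A (2R from 14512559 to 14515211), which encodes a chitin-binding cuticle protein, was the gene called higher. It had 33.1, 24.0, 23.9 and 13.0 RPKM in Tet CD replicates 1 to 4, against 9.40, 5.80, 4.64 and 7.07 RPKM in wt replicates 1 to 4. Every Tet CD library lay above every wt library, and the lowest Tet CD library was replicate 4. The log2 fold change was 1.70 (SE 0.28, limma adjusted p = 0.0069). Its call was lost when any library other than Tet CD replicate 4 was left out (adjusted p 0.0107 to 0.0285), while the log2 fold change stayed between 1.52 and 1.95 over the 8 fits with 1 library fewer.

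Cpr12A (X from 13543643 to 13544907), of the same family, had 17.7, 14.2, 11.5 and 5.73 RPKM in Tet CD and 4.73, 3.11, 1.99 and 4.13 RPKM in wt. The groups did not overlap, and Tet CD replicate 4 was again the lowest of its group. Its log2 fold change was 1.63 (SE 0.33, limma adjusted p = 0.0199), so it missed the threshold; without Tet CD replicate 4 it passed it (1.94, adjusted p = 0.0032).

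Cpr49Ac (2R from 12386666 to 12390057) was the most highly expressed of the 125 genes and the only tested one with an unadjusted p below 0.05 in the other direction. It had 21.3, 27.04, 18.4 and 23.3 RPKM in Tet CD and 47.0, 29.9, 41.2 and 43.3 RPKM in wt, and took 3574 of the 9104 reads in Tet CD and 8046 of the 12027 reads in wt. The groups did not overlap, although wt replicate 2 came close to the highest Tet CD library. The log2 fold change was -0.82 (SE 0.15, limma adjusted p = 0.0125), short of the call. It passed without Tet CD replicate 2 (-0.91, adjusted p = 0.0093) or without wt replicate 2 (-0.96, adjusted p = 0.0045). Its 7 neighbours Cpr49Aa to Cpr49Ah had 38 reads in Tet CD and 45 reads in wt between them, and 3 of them were at 0.

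Of the other tested Cpr genes, 3 had an unadjusted p below 0.05, all higher in Tet CD. Cpr66D had 2.93, 1.17, 1.97 and 0.758 RPKM in Tet CD and 0.726, 0.417, 0.386 and 0.375 RPKM in wt (log2 fold change 1.09, SE 0.30, limma adjusted p = 0.0541). Cpr11B had 2.12, 1.39, 1.195 and 1.02 RPKM in Tet CD and 0.769, 0.525, 0.899 and 0.619 RPKM in wt (0.66, SE 0.20, limma adjusted p = 0.0730). In both genes every Tet CD library was above every wt library. Cpr65Ec had 4.83, 3.75, 2.49 and 2.50 RPKM in Tet CD and 3.13, 2.06, 1.37 and 1.95 RPKM in wt (0.56, SE 0.25, limma adjusted p = 0.167), and its groups overlapped through wt replicate 1. Cpr64Aa, Cpr67B, Cpr60D and Cpr78Ca had log2 fold changes of 0.11 to 0.41, and Cpr97Ea, Cpr78Cc and Cpr78E of -0.13 to -0.09. Cpr78E, the third most abundant gene, had 12.5, 8.72, 10.3 and 7.01 RPKM in Tet CD and 9.76, 10.7, 11.2 and 10.04 RPKM in wt. These 7 genes had overlapping groups, and none reached an unadjusted p below 0.05.

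Lcp genes encode larval cuticle proteins, and Lcp1 to Lcp4 are the classic abundant proteins of the third instar body wall, in 1 cluster on 2R with the pseudogene Lcp1Psi. Lcp1, the highest of the family, had 14.1, 3.31, 3.16 and 1.03 RPKM in Tet CD and 4.14, 3.11, 0.545 and 0.346 RPKM in wt. Lcp4 had 10.6, 1.83, 2.47 and 0.793 RPKM in Tet CD and 1.73, 1.98, 0.244 and 0 RPKM in wt. In both, Tet CD replicate 1 stood far above every other library, and the other Tet CD libraries overlapped with wt. The log2 fold changes were 1.10 (SE 0.74, limma adjusted p = 0.358) for Lcp1 and 1.40 (SE 0.71, limma adjusted p = 0.229) for Lcp4, and 0.50 and 0.79 without Tet CD replicate 1. Lcp2 had 0.169 to 1.81 RPKM in Tet CD and 0.0418 to 0.802 RPKM in wt (log2 fold change 0.31), with its highest value in the same library.

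Summed over the cluster, Lcp1, Lcp1Psi, Lcp2, Lcp3 and Lcp4 had 26.99, 5.64, 5.98 and 2.29 RPKM in Tet CD and 7.16, 5.88, 1.08 and 0.786 RPKM in wt. The libraries of 1 genotype thus differed from each other by more than the genotypes did. Lcp1 and Lcp2 share 88.3% of their coding bases and Lcp3 and Lcp4 share 86.1%, so part of their reads may be assigned to the wrong copy.

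A second group of Lcp genes lies at 65A on 3L, among 19 cuticle protein genes of which 5 were at 0. Lcp65Af had 2.15, 1.40, 1.36 and 1.11 RPKM in Tet CD and 0.992, 0.946, 0.522 and 0.798 RPKM in wt (log2 fold change 0.60, SE 0.20, limma adjusted p = 0.0920). Lcp65Ad had 0.635, 0.840, 1.499 and 0.510 RPKM in Tet CD and 0.279, 0.448, 0.0628 and 0.448 RPKM in wt (0.74, SE 0.27, limma adjusted p = 0.117). Both genes had an unadjusted p below 0.05 and no overlap between groups, and neither was called. The 19 genes together had 4.60, 4.03, 4.78 and 3.43 RPKM in Tet CD and 2.83, 3.21, 2.07 and 2.17 RPKM in wt, without overlap. They had 169 reads in Tet CD and 137 in wt. These sums include Lcp65Af and Lcp65Ad, which make up a large part of them, and so do not describe the remaining genes. This cluster holds copies with identical coding sequence (Lcp65Ab1 and Lcp65Ab2, Cpr65Ax1 and Cpr65Ax2) or nearly so (Lcp65Ag1, Lcp65Ag2 and Lcp65Ag3, 99.4 to 99.7%), whose reads cannot be split with certainty.

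Pcp, the pupal cuticle protein that lies in an intron of the purine synthesis gene Gart, had 4.90, 7.21, 5.07 and 5.25 RPKM in Tet CD and 5.74, 6.33, 5.66 and 6.92 RPKM in wt (log2 fold change -0.14, 95% interval -0.42 to 0.15). Edg91, an ecdysone-dependent gene of pupal cuticle, had 1.202, 2.06, 1.17 and 1.04 RPKM in Tet CD, against 0.284, 1.02, 1.15 and 0.762 RPKM in wt (0.54, 95% interval -0.06 to 1.14). Both genes had overlapping groups.

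Ccp84Ab, the highest of the Ccp84A genes, had 1.004, 1.49, 1.56 and 0.690 RPKM in Tet CD and 0.617, 0.736, 0.743 and 1.21 RPKM in wt (log2 fold change 0.33, limma adjusted p = 0.367). Its copy Ccp84Aa, which shares 91.3% of the coding bases, had 0.479 to 1.24 RPKM in Tet CD and 0.449 to 0.762 RPKM in wt (0.26). In neither gene were the groups apart. Ccp84Ad, the highest of those below the limit, had 0.152, 0.352, 0 and 0 RPKM in Tet CD and 0, 0.0418, 0.211 and 0.0626 RPKM in wt.

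Of the Tweedle genes, TwdlT had 1.63, 1.93, 0.575 and 0.651 RPKM in Tet CD and 0.819, 0.630, 0.554 and 0.515 RPKM in wt (log2 fold change 0.50, limma adjusted p = 0.282), with 2 of the Tet CD libraries high and the other two within the range of wt. TwdlE had 0.323 to 0.913 RPKM in Tet CD and 0.259 to 0.513 RPKM in wt (0.48). It overlaps exons of lectin-28C on the other strand, and whether the counting used strand was not given in the sources used here. TwdlX (X from 16731091 to 16732630), just under the limit, had 0.899, 0.606, 0.557 and 0.996 RPKM in Tet CD and 0.0838, 0.157, 0.142 and 0.135 RPKM in wt, from 78 reads in Tet CD and 18 in wt. Its groups lay far apart, with 5.91-fold higher mean RPKM in Tet CD. The two-sided exact permutation p of 0.0286 is the smallest that 4 against 4 libraries allow, and groups without overlap always give it. In the fit with no filter on low values TwdlX was called higher (limma adjusted p = 0.0054), as were 92 of all 14994 genes.

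**Figure D2:**
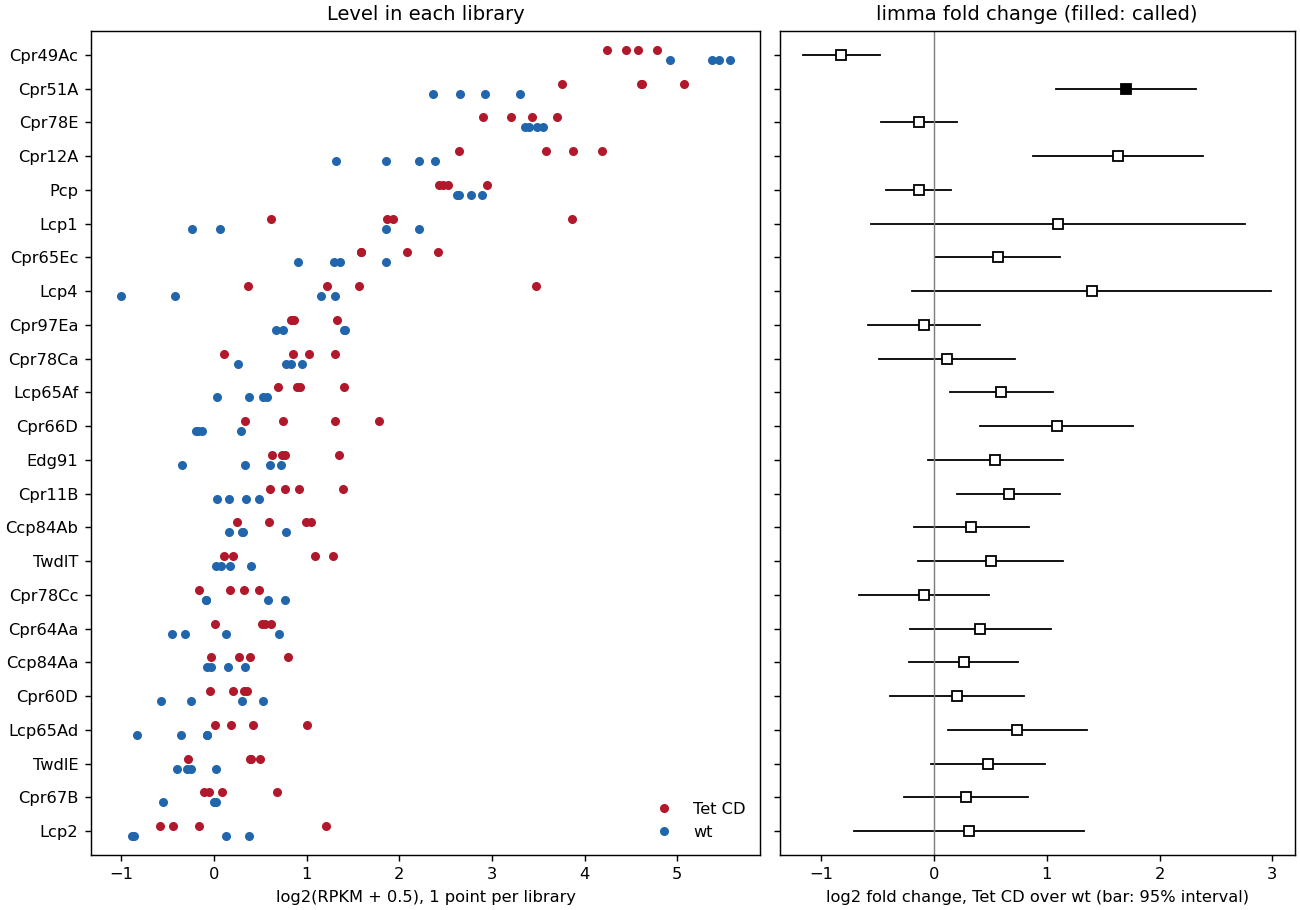
Left, level of the 24 tested cuticle protein genes as log2(RPKM + 0.5), 1 point per library, Tet CD in red above wt in blue, genes in order of their mean. Right, log2 fold change of Tet CD over wt with its 95% interval from limma (filled square, called). Above 0 lie 19 of the 24 squares, 5 of them of genes that reached the filter through Tet CD only. The widest intervals are those of Lcp1 and Lcp4.

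Below the limit of 0.5 RPKM, 82 genes had reads. Pooled over libraries, 48 of them were higher and 34 lower in Tet CD. Of the highest genes of their family below the limit, Cpr73D had 0.424, 0.1025, 0.215 and 0.414 RPKM in Tet CD and 0.604, 0.587, 0.409 and 0.319 RPKM in wt. Edg78E had 0.866, 0.161, 0.449 and 0.108 RPKM in Tet CD and 0.473, 0.286, 0.120 and 0.428 RPKM in wt. Lcp9 had 0.567, 0.131, 0.138 and 0.664 RPKM in Tet CD and 0.145, 0.156, 0.0983 and 0.234 RPKM in wt. All had overlapping groups. Over all 106 genes with reads, 11 had every Tet CD library above every wt library (6.82% of all 14994 genes with reads did) and 6 had every Tet CD library below every wt library (6.76% of all genes). The 11 were Cpr51A, Cpr12A, Cpr66D, Cpr11B, Lcp65Af, Lcp65Ad and TwdlX, given above, and Cpr67Fa2, Cpr47Ec, Cpr62Bc and Cpr97Eb. The 6 were Cpr49Ac, Cpr65Ea, Edg84A, TwdlM, Cpr30B and TwdlY. All 17 had the smallest possible two-sided exact permutation p of 0.0286, in 106 such tests. Groups without overlap always give this value, so it adds nothing to the selection. The 17 genes are named because their values had been seen.

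Reads in all 4 libraries of 1 genotype and in none of the other were found for 2 genes of Tet CD (0.06% of all genes with reads) and 4 genes of wt (0.18% of all genes). Cpr67Fa2 (3L from 10891714 to 10892516) had 9, 4, 5 and 11 reads in Tet CD and 0 in wt, at least 12.6-fold higher in Tet CD with 3 reads taken as the limit of the 4 wt libraries together and the Tet CD reads taken as counted. Cpr47Ec (2R from 11259106 to 11259976) had 5, 8, 3 and 1 reads in Tet CD and 0 in wt, at least 7.40-fold higher. In Cpr67Fa2 the reads were spread over all 4 Tet CD libraries, whereas Cpr47Ec had a single read in replicate 4.

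Cpr65Ea (3L from 7086003 to 7086608) showed the opposite pattern, with 0 reads in Tet CD and 7, 7, 9 and 4 reads in wt, at least 6.89-fold lower in Tet CD. Its neighbour Cpr65Ec, some kilobases away in the same cluster, was read in all 8 libraries with a positive log2 fold change. Edg84A, a pupal cuticle gene known as a target of the nuclear receptor FTZ-F1, had 0 reads in Tet CD and 2, 4, 3 and 1 reads in wt. TwdlM had 0 reads in Tet CD and 1, 1, 6 and 2 reads in wt, and Cpr30B had 0 in Tet CD and 3, 1, 3 and 1 in wt. These last 3 genes rest on only 8 to 10 reads each. By the same rule they were at least 2.04-fold (Cpr30B) and 2.55-fold (Edg84A and TwdlM) lower in Tet CD, which is a weak bound. With no filter, Cpr67Fa2 was called higher (limma adjusted p = 0.0073) and Cpr65Ea lower (limma adjusted p = 0.0035) among 14994 genes. Over all these genes, 92 were called higher and 114 lower. Edg84A was not called (limma adjusted p = 0.0225), and Cpr51A lost its call (limma adjusted p = 0.0157).

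**Figure D3:**
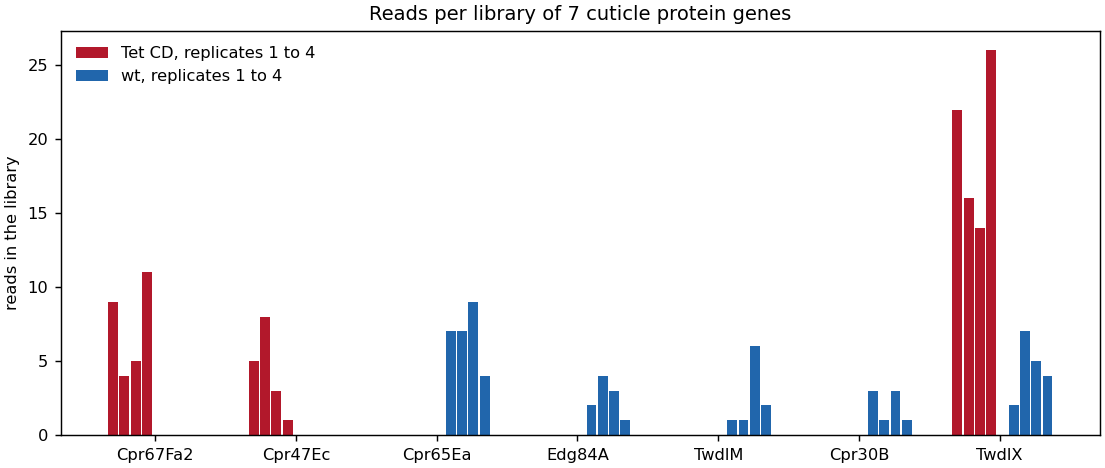
Reads per library (vertical axis) of 7 low cuticle protein genes, with 1 bar per library, Tet CD replicates 1 to 4 in red left of wt replicates 1 to 4 in blue; a missing bar is 0 reads. Cpr67Fa2 and Cpr47Ec have bars in Tet CD alone, Cpr65Ea, Edg84A, TwdlM and Cpr30B in wt alone, and TwdlX in both, with 14 to 26 reads in Tet CD and 2 to 7 reads in wt.

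Cpr67Fa2 has a near copy, Cpr67Fa1, in the same cluster on 3L, with 391 of 405 coding bases in common (96.5%). Cpr67Fa1 had 1 read in Tet CD and 0 in wt. A stretch of both coding sequences from RefSeq (bases 298 to 357 of each) is shown because it holds 4 of their 14 differing bases, in capitals, by which a read can be assigned to 1 copy.
Cpr67Fa2: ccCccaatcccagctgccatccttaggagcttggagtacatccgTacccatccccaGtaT
Cpr67Fa1: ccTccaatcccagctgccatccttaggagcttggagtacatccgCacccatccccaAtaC

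Most of the genes lie in clusters: 91 of the 125 are in 15 clusters of 3 or more with gaps under 20 kb. Of these 91, 12 were tested, and of the 34 genes outside clusters 12 were tested. The 7 genes of the Cpr47E cluster had 1.39, 1.88, 1.59 and 0.967 RPKM together in Tet CD and 0.328, 0.358, 0.548 and 0.426 RPKM in wt, from 128 reads in Tet CD and 46 in wt, with no overlap. Of these reads, Cpr47Ef had 88 in Tet CD and 31 in wt. The 12 Tweedle genes of the cluster on 3R from 26619118 to 26641054 had 9 reads in Tet CD and 44 in wt, with 5 of them at 0, and the groups overlapped (0 to 0.323 RPKM in Tet CD, 0.256 to 0.616 RPKM in wt).

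Family sums are dominated by a few genes and were not tested. Cpr summed to 87.6 ± 18.3 RPKM in Tet CD and 74.6 ± 10.7 RPKM in wt (SD, n = 4 each). Lcp summed to 14.2 ± 11.7 RPKM in Tet CD and 5.61 ± 3.54 RPKM in wt, and Twdl to 4.52 ± 0.568 RPKM in Tet CD and 3.20 ± 0.313 RPKM in wt. Ccp84A summed to 2.29 ± 0.693 RPKM in Tet CD and 1.63 ± 0.290 RPKM in wt, and Edg to 1.76 ± 0.483 RPKM in Tet CD and 1.28 ± 0.255 RPKM in wt. Twdl was the family whose libraries did not overlap, with 3.83 to 5.02 RPKM in Tet CD and 2.79 to 3.44 RPKM in wt. These sums include TwdlX, with 0.557 to 0.996 RPKM in Tet CD and 0.0838 to 0.157 RPKM in wt. They therefore do not show that the other Twdl genes were apart.

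All 125 genes summed to 155, 119, 105 and 84.4 RPKM in Tet CD and 109, 83.9, 84.2 and 93.2 RPKM in wt, which overlap. Without Cpr49Ac the sums were 134, 92.2, 86.7 and 61.1 RPKM in Tet CD and 61.5, 54.0, 43.1 and 49.9 RPKM in wt, with Tet CD replicate 4 just below wt replicate 1. The median log2 ratio of the 24 tested genes to their wt mean was 0.72, 0.57, 0.21 and 0.15 in the Tet CD libraries (replicates in order). In the wt libraries it was 0.23, 0.04, -0.24 and -0.03. The libraries thus differed in the level of these genes within each genotype too. Of the 24, 5 reached the filter through Tet CD only, so these medians describe the 24 and not all 125 genes.

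The CNS label was checked against marker genes. The neuronal gene elav had 53.4 to 104 RPKM in Tet CD and 111 to 122 RPKM in wt, and the glial gene repo had 41.8 to 48.1 RPKM in Tet CD and 46.4 to 49.9 RPKM in wt. The 5 neuron markers summed to 313, 191, 239 and 312 RPKM in Tet CD replicates 1 to 4 and 312 to 355 RPKM in wt. Tet CD replicates 1 and 4 were thus at the lowest wt level, and replicates 2 and 3 far below it. In Tet CD, 4 of 5 were lower at an unadjusted p below 0.05 (13.9% of all genes) and 0 were called. In order of exon length, nSyb (4072 bases) had a log2 fold change of -0.18, Syt1 (7190) of -0.60 and elav (10715) of -0.55. For brp (13371) it was -0.76 and for futsch (23308) 0.08. The part of exon length in these values was not tested. Glia markers summed to 162 to 199 RPKM in Tet CD and 166 to 182 RPKM in wt, and neuroblast markers to 135 to 149 RPKM in Tet CD and 125 to 154 RPKM in wt. Markers of the ring gland, an endocrine organ attached to the brain, summed to 257 to 467 RPKM in Tet CD and 243 to 591 RPKM in wt. In the Tet CD libraries, the other lists summed to 17.9 to 27.7 RPKM for hemocytes, 2.30 to 54.2 for fat body, 2.62 to 11.9 for salivary gland, 10.8 to 18.6 for imaginal disc, 14.98 to 23.7 for body wall muscle and 11.8 to 17.8 for epidermal apical matrix. In the wt libraries, they summed to 12.9 to 25.5 RPKM for hemocytes, 1.42 to 34.0 for fat body, 1.73 to 8.02 for salivary gland, 16.8 to 18.5 for imaginal disc, 11.2 to 16.3 for body wall muscle and 9.50 to 14.3 for epidermal apical matrix. For both fat body and salivary gland, the highest libraries were Tet CD replicate 2 and wt replicate 4. The fat body sums of the other libraries were 1.42 to 8.15 RPKM. Of the 5 hemocyte markers, 4 were tested, 2 of them (Hml and He) were higher in Tet CD at an unadjusted p below 0.05 (14.4% of all genes) and 0 were called. NimC1, the hemocyte marker below the limit, had 0.528 to 1.18 RPKM in Tet CD and 0.0699 to 0.118 RPKM in wt, without overlap, while Pxn, which makes up much of the sum, had 9.32 to 13.8 RPKM in Tet CD and 10.5 to 14.1 RPKM in wt. Their part in the differences of cuticle protein genes was not tested.

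Markers of trachea, a tissue with cuticle of its own, differed between the libraries. The 8 markers summed to 211, 181, 136 and 122 RPKM in Tet CD and 119, 95.5, 57.3 and 94.3 RPKM in wt, without overlap, none was at 0, and replicate 1 was the highest of each genotype. All 8 were tested, 0 were called higher (1.16% of all genes were), and 5 were higher in Tet CD at an unadjusted p below 0.05 (14.4% of all genes were). The 2 regulators among them were not higher: trh, a transcription factor that specifies trachea, had 4.41 to 6.11 RPKM in Tet CD and 5.67 to 6.48 RPKM in wt (log2 fold change -0.21), and btl, the FGF receptor of tracheal cells, had 1.40 to 1.64 RPKM in Tet CD and 1.35 to 1.61 RPKM in wt (-0.02). The part of tracheal tissue in the differences of cuticle protein genes was not tested.

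**Figure D4:**
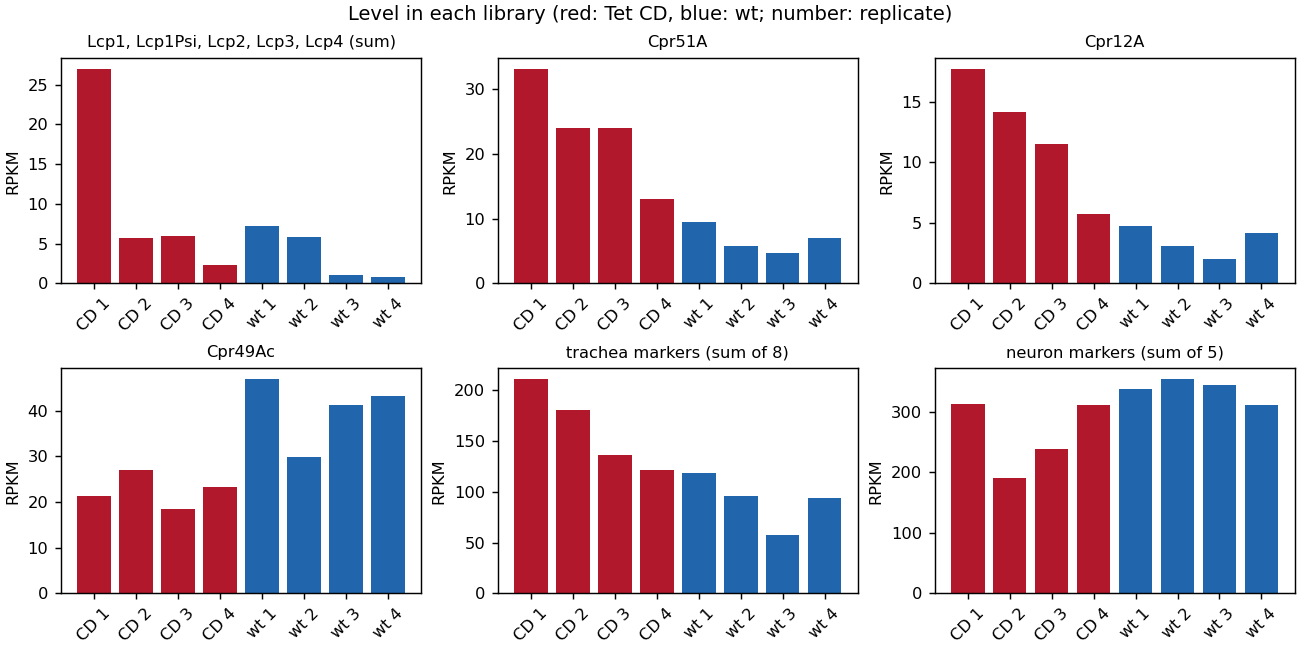
RPKM (vertical axis of each panel, starting at 0) in Tet CD replicates 1 to 4 (red, left) and wt replicates 1 to 4 (blue, right) for the Lcp cluster sum, Cpr51A, Cpr12A and Cpr49Ac, beside the summed trachea and neuron markers. The highest bar is Tet CD replicate 1 for the Lcp cluster, Cpr51A, Cpr12A and the trachea markers, and wt replicate 1 for Cpr49Ac.

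Other genes of cuticle formation were followed in 3 lists of 51 genes, of which 49 were in the table and 44 were tested. The tested genes had 26 positive and 18 negative log2 fold changes (median 0.23), with 2 called higher and 0 called lower, where 1.16% of all genes were called higher and 1.35% lower. At an unadjusted p below 0.05, 19 were higher and 9 lower, where 14.4% of all genes were higher and 13.9% lower. Among the genes for chitin synthesis and the chitin matrix, 19 of 23 tested were positive (median 0.64), 15 were higher at an unadjusted p below 0.05 (14.4% of all genes), and 1, exp, was called. exp (expansion), needed for chitin deposition by chitin synthase, had 2.38, 2.23, 1.74 and 2.12 RPKM in Tet CD and 1.04, 0.691, 0.376 and 0.802 RPKM in wt (log2 fold change 1.12, SE 0.19, limma adjusted p = 0.0091); without any 1 of the 8 libraries it missed the threshold (adjusted p 0.0117 to 0.0334). The most abundant were verm, a chitin deacetylase of the tracheal lumen (50.0 ± 10.3 RPKM in Tet CD and 28.1 ± 8.29 RPKM in wt, SD, n = 4 each, limma adjusted p = 0.0419), and Cht10, a chitinase (48.6 ± 14.2 RPKM in Tet CD and 23.8 ± 7.40 RPKM in wt, limma adjusted p = 0.0431). This list shares Gasp, serp and verm with the trachea markers.

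Of the 8 tested genes that harden and colour the cuticle, 6 were positive and Ddc was called. Ddc, the dopa decarboxylase that makes dopamine for tanning and for neurons alike, had 18.0, 19.1, 20.8 and 21.4 RPKM in Tet CD and 9.20, 10.5, 10.1 and 8.57 RPKM in wt (log2 fold change 1.01, SE 0.08, limma adjusted p = 0.00014), and it stayed called without any 1 library. Pu, which makes the cofactor of dopa synthesis, had 6.27 to 10.5 RPKM in Tet CD and 6.35 to 8.43 RPKM in wt (0.19, limma adjusted p = 0.453). Of the 13 regulators of molting and cuticle, 12 were negative (median -0.34). At an unadjusted p below 0.05, 8 were lower (13.9% of all genes) and 1 higher (14.4%), and 0 were called. Eip93F came nearest to a call (log2 fold change -1.37, limma adjusted p = 0.0105). Summed, the 13 had 208, 140, 148 and 206 RPKM in Tet CD replicates 1 to 4 and 216 to 239 RPKM in wt. Tet CD replicates 2 and 3 were thus the lowest. The 13 differ in exon length, from 3038 bases (usp) to 13899 bases (Hr4), and its part in these sums was not tested. The most abundant regulators were the ecdysone-induced transcription factor genes Eip75B and Eip74EF. Eip75B averaged 31.7 ± 11.5 RPKM in Tet CD and 54.2 ± 3.50 RPKM in wt (SD, n = 4 each, limma adjusted p = 0.0483). Eip74EF averaged 29.5 ± 6.16 RPKM in Tet CD and 36.5 ± 2.88 RPKM in wt (SD, n = 4 each, limma adjusted p = 0.157). Eip75B did not reach the threshold, although its groups did not overlap (19.6 to 42.9 RPKM in Tet CD and 51.4 to 59.2 RPKM in wt).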

How the data were processed

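RNA-seq values of 4 Tet CD and 4 wt larval CNS samples were used; 4 further columns of per-sample values matched no label and were not used, and Tet null, ChIP-seq and CUT&RUN were not analysed here. The authors used Cutadapt for trimming, Hisat2 for alignment to dm6, HTSeq-Count for counting and DESeq2 for testing the counts; the RPKM values they deposited came from Cufflinks. Versions of these tools were not given in the sources used here. The counts were not used, so a test for counts planned by the study was replaced by limma 3.58.1 (R 4.3.3; lmFit, eBayes with trend) on log2(RPKM + 0.5).

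Genes averaging 0.5 RPKM or more, 9357 in all, were tested, with Benjamini-Hochberg adjustment over all of them; a gene was called at adjusted p below 0.01 and fold change above 1.2. Single members were compared with a two-sided exact permutation test over 70 arrangements. Library size was found from the steps between values under 0.3 RPKM, of which 97.6 to 98.1% were whole reads within 0.01, and all values of the 125 members were whole within 0.05. Exon lengths and positions came from Ensembl release 115 on dm6, later than the annotation of the authors, and cover 98.4% of the genes. RefSeq gave promoters for all but 3 members and coding sequences. Python 3.11.15, pandas 2.3.3, scipy 1.17.1, Biopython 1.88 and matplotlib 3.10.9 were used. The fit was tested on simulated data.

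Per-library values were to be given for members that were called, had an unadjusted p below 0.05 or had the highest mean of their family, tested or below the filter; for the other lists, the called genes and the 2 with the highest mean. Genes named outside this rule are those whose groups did not overlap and those in clusters or copies described. Lists for chitin, tanning, molting regulators, trachea, imaginal disc, epidermal apical matrix, ring gland, fat body, salivary gland, hemocyte, body wall muscle, neuron, glia and neuroblast held 108 genes, of which 105 were found. Members and lists were chosen with earlier results of these data known. The alternatives were blocking by replicate number, median-of-ratios scaling, pseudocounts of 0.1 and 1, array weights, no filter, a filter at 2 RPKM, a lowess correction for exon length (span 0.3), an adjusted p below 0.05, and leaving out each library.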

Additional observations from a re-analysis of the deposited data

Results flagged for a closer look

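In 10 of the 82 groups of 4 libraries examined, 1 library was far from its group (its gap to the nearest other library, over the whole range, passed the 95% limit of Dixon's test). Chance alone gives about 1 in 20 groups, 4.1 of 82, for normally spread values. This rate does not hold for groups of a few reads, of which some are among the 10. Of the 10, 6 are Tet CD and 4 wt libraries. Tet CD replicate 1 was high in Lcp4 (10.6 RPKM, the others 0.793 to 2.47) and Lcp2 (1.81 RPKM, the others 0.169 to 0.391). Tet CD replicate 2 was high in Pcp (7.21 RPKM, the others 4.90 to 5.25), Edg91 (2.06 RPKM, the others 1.04 to 1.202) and Cpr97Ea (2.01 RPKM, the others 1.29 to 1.32). It was low in TwdlY, at 0 RPKM where the others had 0.101 to 0.108, which is 2 reads in each. In wt, replicate 1 was high in Cpr66D (0.726 RPKM, the others 0.375 to 0.417), and replicate 4 was low in Cpr67B (0.182 RPKM, the others 0.498 to 0.517). It was also low in Edg84A (0.0706 RPKM, which is 1 read, the others 0.176 to 0.188 RPKM from 2 to 4 reads). In wt replicate 3, Cpr62Bc had 0.0341 RPKM, which is 1 read, and 0 in the others.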

How the results depend on the processing

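Among cuticle protein genes, 1 higher and 0 lower were called with pseudocounts of 0.1 and 1, a filter at 2 RPKM and median-of-ratios scaling. No filter gave 2 higher and 1 lower, array weights 5 and 1, an adjusted p below 0.05 gave 2 and 1, the exon length correction 1 and 1, and the replicate block 0 and 0. Leaving out 1 library gave 0 to 2 higher and 0 to 1 lower. Over all genes, 109 higher and 126 lower became 51 and 60 with the replicate block, 826 and 1024 with array weights, 442 and 350 at adjusted p below 0.05, 176 and 189 with the exon length correction, and 51 to 203 and 70 to 203 without 1 library. With no filter, 92 of all 14994 genes were called higher and 114 lower. Array weights gave Tet CD replicate 3 a weight of 6.32, against 0.318 to 0.399 for the other Tet CD libraries. For other cuticle genes, 2 higher and 0 lower became 1 higher with a pseudocount of 0.1, no filter or a filter at 2 RPKM; 1 lower with a pseudocount of 1; 14 and 10 with array weights; 3 and 2 with the exon length correction; 11 and 2 at adjusted p below 0.05; and 1 to 2 higher and 0 to 1 lower without 1 library. The cause of these shifts was not tested.

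Of the fold changes of single tested genes under alternatives, 333 kept their direction and side of the threshold and 9 turned round, all near 0 on the log2 scale: Lcp2 to -0.086 with array weights, Cpr78Cc without Tet CD replicate 2, wt replicate 1 or wt replicate 2 (range -0.219 to 0.0666 over the libraries left out), Cpr78Ca without Tet CD replicate 4 or wt replicate 2 (-0.0464 to 0.354), Cpr78E without Tet CD replicate 4 (-0.264 to 0.0018), and Cpr97Ea without wt replicate 2 or 4 (-0.219 to 0.0302). A further 9 gained and 9 lost the threshold. Over all tested genes the replicate numbers showed no steady pairing: deviations of same-numbered libraries correlated at 0.24, -0.19, 0.04 and -0.10. For cuticle protein genes pairing was not settled. The replicate block lowered the SE of Lcp1 from 0.74 to 0.29 and raised that of Lcp65Ad from 0.27 to 0.32. Depth limits the 82 genes under 0.5 RPKM, 50 of all 125 genes having no more than 3 reads in any library.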
